A study of Mus musculus with 6 samples.

Results

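The genes described here are those of the colony-stimulating factor system, followed in microglia of antibody-treated mice: *Csf1r*, its ligands *Csf1* and *Il34*, the receptor chains *Csf2ra*, *Csf2rb* and *Csf2rb2*, and *Csf3r*. They were chosen by gene name, and all 7 were found among the 55493 genes of the deposited count table. RNA came from microglia sorted as CD45low CD11b+ cells from one side of the brain of male ILT Telo Tg x 5XFAD mice. The transgene brings in human leukocyte immunoglobulin-like receptor genes, and 5XFAD is an amyloid model of Alzheimer disease. Every group carried both alleles, so no library shows microglia without the human receptors or without amyloid. From 4 months of age the mice received weekly intraperitoneal injections for 8 weeks, at 60 mg/kg, of either the Fc-mutant anti-ILT3 antibody ZM3.1, which binds human LILRB4, or the Fc-mutant control antibody 27D6. There were 3 libraries per group. Whether each library is a different animal is not said in the labels, and the p-values then describe only how these libraries vary.

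CSF1R is the receptor tyrosine kinase on which microglia depend for survival. It is bound by CSF1, a cytokine made by many cell types, and by IL-34, which in the brain is made mainly by neurons. GM-CSF acts through a different kind of receptor without a kinase of its own, formed by the ligand-specific alpha chain CSF2RA and the common beta chain CSF2RB, which is shared with the receptors of IL-3 and IL-5. Mice have a further beta chain, encoded by *Csf2rb2*, that serves IL-3 alone. CSF3R, the receptor of G-CSF, is best known from neutrophils and their precursors.

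In the anti-LILRB4 libraries the level of *Csf1r* was on average 1.59-fold that of controls, and the levels of *Csf2rb*, *Csf2rb2* and *Csf3r* were 1.46-, 1.47- and 1.36-fold those of controls. *Csf2ra* had nearly the same level in both groups and *Csf1* a slightly lower mean with overlapping groups. *Il34* was at the limit of detection. None of these differences passed the test: with edgeR's quasi-likelihood test and Benjamini-Hochberg adjustment, 0 of the 6 tested genes reached an adjusted p of 0.05, as did 0% of all 18210 genes tested. With unadjusted p below 0.05, 4 of the 6 were higher and 0 were lower, against 4.12% higher and 3.91% lower among all genes tested. All treated libraries lay above all controls in 3 of the 6 and below them in 0, against 6.94% and 7.79% of all genes tested. *Il34* was removed by the filter on low counts and is in none of these counts. DESeq2 called 0 of the 6 genes, against 0.546% of its genes called higher.

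Total counts per library ran from 39805118 to 56345514. Markers of the labelled cell type were abundant: 12 of 12 microglia markers were tested, and *P2ry12* and *Cx3cr1*, which are among the most abundant of them, stood at 13223 ± 377 and 6318 ± 669 CPM in controls (SD, n = 3). CPM is a read count relative to library size, here after TMM scaling, which aligns the bulk of genes between libraries. A pair of libraries lay at the ends of the range for most of the receptor genes. In 4 of the 6 tested genes control library 1 was the lowest and anti-LILRB4 library 2 the highest of all libraries, an arrangement that 1456 of the 18210 genes (8.00%) had. For the 6 tested genes, values without these libraries are therefore given. In the 4 genes with this arrangement, leaving out either library lowers the difference by construction, so a smaller value there is not a test result.

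Compared per kilobase of exon, the scale on which different genes can be set side by side, *Csf1r* was by far the most abundant. Over the 6 libraries its level was 566 ± 202 CPM per kb (SD, n = 6), against 56.1 ± 14.5 for *Csf3r*, 10.8 ± 2.84 for *Csf2rb*, 5.77 ± 1.79 for *Csf2rb2*, 5.43 ± 0.727 for *Csf2ra* and 2.73 ± 0.585 for *Csf1*. In this order each gene exceeded the next in 6 of 6 libraries, except that *Csf2rb2* exceeded *Csf2ra* in only 3 of 6, so these neighbours did not differ beyond their spread. The receptor for CSF1 was thus detected at a far higher level than the ligand in the same cells, and the alpha chain of the GM-CSF receptor at a lower level than its beta chain.

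**Figure D1:**
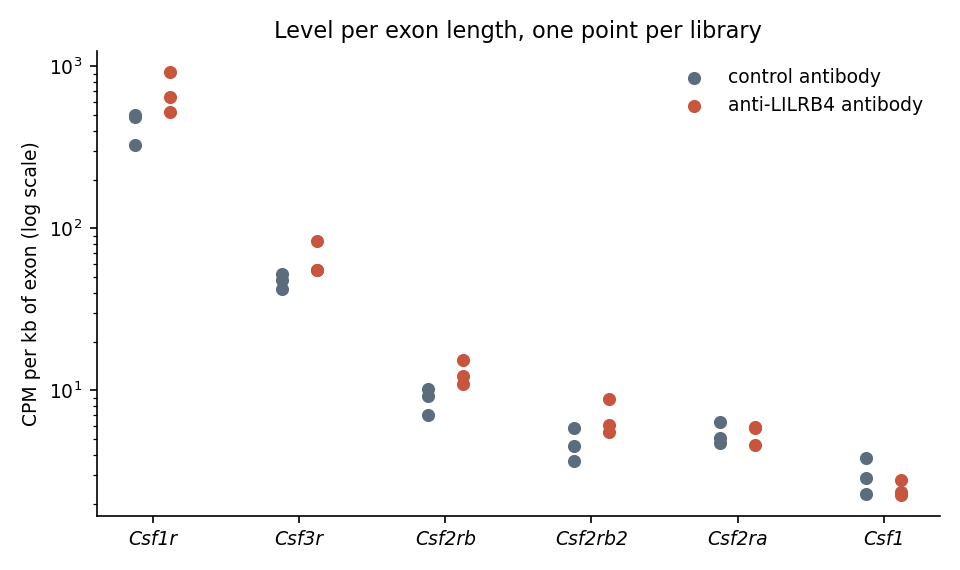
Level of each gene per kilobase of exon in each library (CPM per kb, log scale), with genes ordered by their mean and 3 points per group. *Csf1r* lies above every other gene in all 6 libraries, and the points of *Csf2rb2* and *Csf2ra* overlap. *Il34*, at or near 0, is not drawn.

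Among the ligands, *Csf1* was measured at 12.0, 15.2 and 20.1 CPM in controls 1 to 3 and at 14.7, 12.5 and 12.0 CPM in treated libraries 1 to 3. The groups overlapped, since control library 1 was as low as the lowest treated library. The mean was 15.8 ± 4.05 CPM in controls and 13.1 ± 1.44 CPM in treated libraries (SD, n = 3). The log2 fold change, treated minus control, was -0.27 with a 95% interval of -0.76 to 0.23 (edgeR adjusted p 0.802). It was -0.06 without control library 3 and -0.43 without control library 1. Without anti-LILRB4 library 2 it was -0.23, and without both that library and control library 1 it was -0.40. *Csf1* lies on GRCm38 chromosome 3, 107741048 to 107760469, minus strand, and its exons overlap those of no other annotated gene.

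*Il34*, the neuronal ligand of CSF1R, had 0 reads in each control library and 1, 0 and 2 reads in treated libraries 1 to 3. A count of 0 allows up to 3 reads, which is 0.0526 to 0.0744 CPM in these libraries, so both groups were at or under the limit of detection and no fold was computed. Markers of neurons were also near 0, with *Gad2*, a GABA-synthesising enzyme, at 0.444 CPM and *Snap25*, a synaptic vesicle fusion protein, at 0.386 CPM in controls. Their summed level ran from 1.21 to 2.18 CPM in controls and from 0.859 to 1.80 CPM in treated libraries. *Il34* lies on chromosome 8, 110741829 to 110805924, minus strand. Its exons overlap those of the antisense genes *Gm15894* and *Gm15895* over 97 bases, and the library kit does not mark strand.

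*Csf1r*, the receptor for both ligands, was measured at 1875, 2892 and 2804 CPM in controls 1 to 3 and at 3010, 5328 and 3703 CPM in treated libraries 1 to 3. All treated libraries lay above all controls, but anti-LILRB4 library 1 exceeded control library 2 only slightly. The gene took from 0.184% of all counts in control library 1, where it was 50th in abundance, to 0.540% in anti-LILRB4 library 2, where it was 15th. In the other libraries it was between 25th and 27th.

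The mean of *Csf1r* was 2524 ± 563 CPM in controls and 4014 ± 1190 CPM in treated libraries (SD, n = 3). The log2 fold change, treated minus control, came to 0.67 (standard error 0.21), and its 95% interval was 0.20 to 1.14. In edgeR the unadjusted p was 0.00958 and the adjusted p 0.506. The authors' deposited table gives *Csf1r* a log2 fold change of 0.67 and an adjusted p of 0.113. Without anti-LILRB4 library 2 the log2 fold change was 0.42, and without both that library and control library 1 it was 0.24 (adjusted p 0.756 and 0.696). Without control library 1 alone it was 0.49. With no filter on low counts edgeR called *Csf1r* higher (adjusted p 1.41e-06), as it did *Csf2rb*, so that 2 of the 6 genes were called, against 0.517% of all genes called higher in that fit. The range over all alternatives was 1.41e-06 to 0.756. In sorted bulk RNA, more cells of a type and more RNA per cell cannot be told apart.

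**Figure D2:**
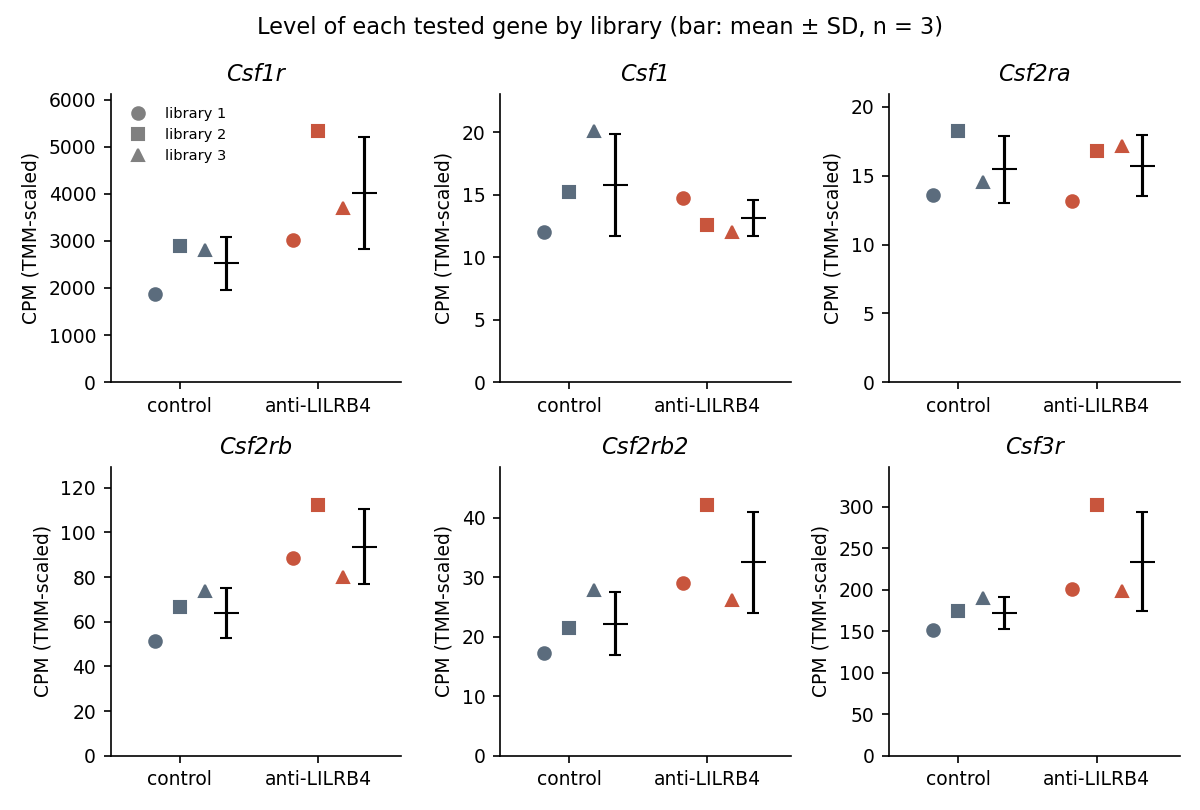
Level of the 6 tested genes (CPM, linear axes from 0) in each library, with controls in grey and anti-LILRB4 libraries in red. The marker shape gives the library number, and the bar beside each group is the mean with its SD (n = 3). Anti-LILRB4 library 2 (square) is the highest library for *Csf1r*, *Csf2rb*, *Csf2rb2* and *Csf3r*, and control library 1 (circle) the lowest.

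The difference in *Csf1r* was not matched by the summed microglia markers, whose level was 48853 to 50054 CPM in controls and 48290 to 50334 CPM in treated libraries. Relative to the control mean, *Csf1r* stood at -0.40, 0.22 and 0.18 (log2) in controls 1 to 3 and at 0.28, 1.11 and 0.58 in treated libraries 1 to 3. The marker sum stayed between -0.03 and 0.03 in every library. Among the 12 markers 3 were higher and 0 were lower with unadjusted p below 0.05, against 4.12% and 3.91% of all genes tested. Their median log2 fold change was 0.10, beside -0.0068 over all genes tested. When the libraries were scaled to these markers, the log2 fold change of *Csf1r* was again 0.67, a value that so flat a sum could hardly change.

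The genes whose levels were most like that of *Csf1r* over the 6 libraries, among 4320 protein-coding genes with a mean of at least 5 on the log2 CPM scale, were *Laptm5*, *Map3k1*, *Plxnb2*, *Bin2* and *Zfp710*. Their Pearson correlations with *Csf1r* were 0.999, 0.996, 0.996, 0.995 and 0.995, given as a description of 6 libraries that share the same order at their extremes. *Laptm5*, encoding a lysosomal membrane protein, was at 2301, 3341 and 3257 CPM in controls 1 to 3 and at 3451, 5992 and 4270 CPM in treated libraries 1 to 3. The log2 fold changes of *Laptm5*, *Map3k1*, a kinase of the MAP kinase cascades, *Plxnb2*, a semaphorin receptor, *Bin2*, a membrane-curving protein of myeloid cells, and *Zfp710* were 0.62, 0.40, 0.67, 0.76 and 0.52, with edgeR adjusted p between 0.506 and 0.581. These genes were picked for their correlation with *Csf1r* over the same libraries, so the direction of their differences was set by that choice. By this correlation *Csf3r* was 116th (0.942) and *Csf2rb* 162nd (0.932).

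**Figure D3:**
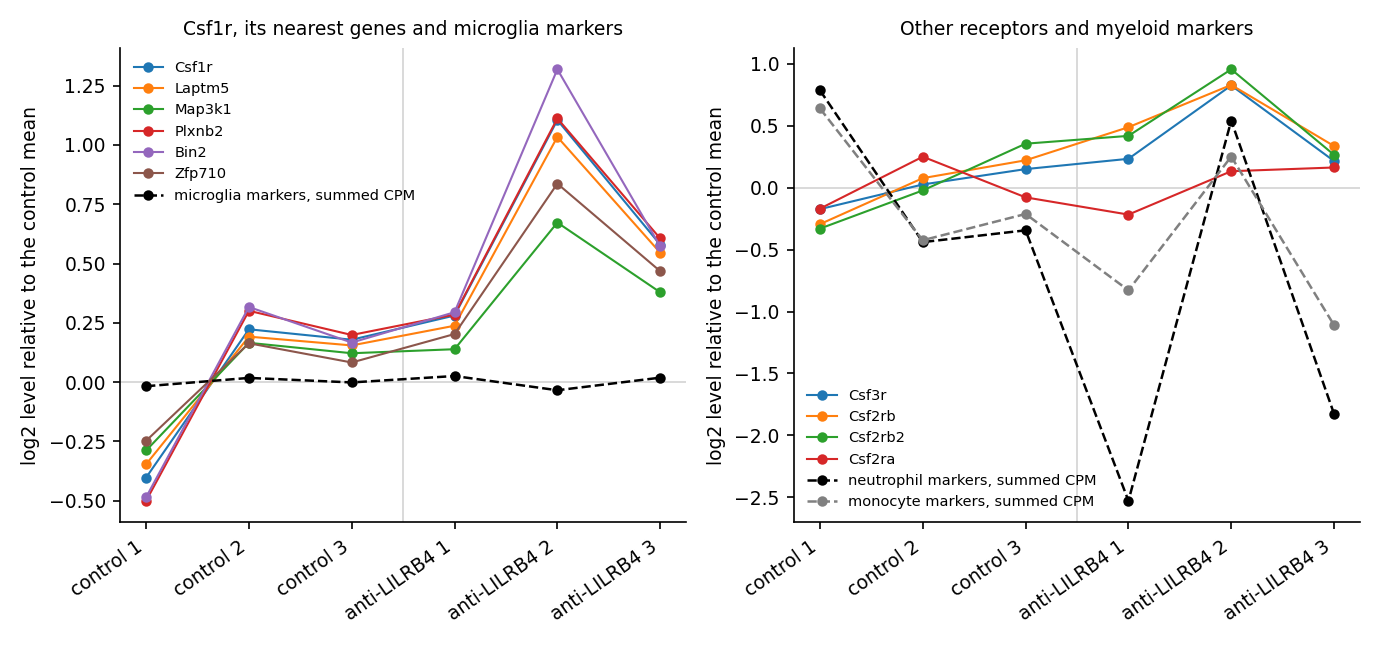
Log2 level in each library relative to the control mean, for *Csf1r* with its nearest genes and the summed microglia markers (left) and for the other receptor genes with summed neutrophil and monocyte markers (right). Lines join the values of one gene or list and imply no order of libraries. *Csf1r* and its nearest genes, which were picked for their correlation with it, follow one pattern, from -0.40 to 1.11 for *Csf1r*. The microglia marker sum stays between -0.03 and 0.03, and the neutrophil marker sum is lowest in anti-LILRB4 libraries 1 and 3.

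*Csf1r* (ENSMUSG00000024621) lies on GRCm38 chromosome 18, 61100598 to 61132149, plus strand. Its exons overlap those of *Hmgxb3*, on the opposite strand, over 873 bases. *Hmgxb3* had 1271 to 2129 reads per library, against 82949 to 304090 for *Csf1r*.

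The chains of the GM-CSF and IL-3 receptors are given next. *Csf2ra*, the ligand-specific alpha chain, was at 13.6, 18.2 and 14.5 CPM in controls 1 to 3 and at 13.2, 16.8 and 17.2 CPM in treated libraries 1 to 3, with full overlap of the groups. The mean was 15.5 ± 2.45 CPM in controls and 15.7 ± 2.20 CPM in treated libraries (SD, n = 3). Its log2 fold change was 0.02 with a 95% interval of -0.42 to 0.46 (edgeR adjusted p 0.986). Leaving out control library 1 gave -0.06, leaving out anti-LILRB4 library 2 gave -0.02, and leaving out both gave -0.11. The sign thus changed with which libraries were used, and no direction is given. *Csf2ra* lies on GRCm38 chromosome 19, 61223957 to 61228429, minus strand, and its exons overlap those of no other annotated gene.

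*Csf2rb*, the common beta chain, was at 51.6, 66.7 and 73.7 CPM in controls 1 to 3 and at 88.7, 112.4 and 79.8 CPM in treated libraries 1 to 3. All treated libraries lay above all controls. The mean was 64.0 ± 11.3 CPM in controls and 93.7 ± 16.8 CPM in treated libraries (SD, n = 3). The log2 fold change, treated minus control, came to 0.55 (standard error 0.17), and its 95% interval was 0.17 to 0.93. In edgeR the unadjusted p was 0.00934 and the adjusted p 0.506, and the authors' deposited table gives *Csf2rb* an adjusted p of 0.116. Leaving out control library 1 gave a log2 fold change of 0.42, leaving out anti-LILRB4 library 2 gave 0.41, and leaving out both gave 0.27. With no filter on low counts the adjusted p was 0.0225, within a range of 0.0225 to 0.756 over all alternatives.

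*Csf2rb2*, the beta chain for IL-3, was at 17.3, 21.4 and 27.8 CPM in controls 1 to 3 and at 29.1, 42.2 and 26.2 CPM in treated libraries 1 to 3. The groups overlapped, since anti-LILRB4 library 3 was below control library 3. The log2 fold change was 0.55 with a 95% interval of 0.04 to 1.06 (edgeR unadjusted p 0.0378, adjusted p 0.590). With control library 1 left out it was 0.40, with anti-LILRB4 library 2 left out 0.32, and with both left out 0.17. Reads per *Csf2ra* read gave no clear separation for the common beta chain: *Csf2rb* had 3.78, 3.66 and 5.08 reads per *Csf2ra* read in controls 1 to 3 and 6.73, 6.68 and 4.65 in treated libraries 1 to 3, so the groups overlapped.

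The beta chain genes are neighbours on GRCm38 chromosome 15, with *Csf2rb* at 78325752 to 78353847 on the plus strand and *Csf2rb2* at 78282507 to 78305721 on the minus strand. Reads that fall wholly in stretches shared by both genes are uncertain to assign. Each also overlaps a miRNA gene, *Mir7676-2* and *Mir7676-1*, over 62 bases, and both miRNA genes had 0 reads. In GENCODE M21 their longest annotated coding sequences are 2688 and 2634 bases, and 2503 of 2628 aligned bases (95.2%) are identical. The longest identical run is 242 bases. Of all 150-base stretches of the *Csf2rb* coding sequence, 150 bases being the read length, 6.50% occur unchanged in *Csf2rb2*, and of all 50-base stretches 26.0%. The following window of 60 bases, at positions 24 to 83 of both coding sequences, was chosen as the first stretch with a mismatch count nearest the overall rate, and shows how few bases separate the genes. It has 3 mismatches. Capitals mark the mismatches.
Csf2rb: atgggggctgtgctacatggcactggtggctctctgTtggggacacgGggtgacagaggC
Csf2rb2: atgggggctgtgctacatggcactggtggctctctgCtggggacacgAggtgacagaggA

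*Csf2rb* took 74.9%, 75.7% and 72.6% of the reads of the pair in controls 1 to 3 and 75.3%, 72.7% and 75.3% in treated libraries 1 to 3. The groups overlapped. The 95% Wilson intervals, which cover counting error only, ran from 71.3% at the lowest bound to 77.1% at the highest. With the pair summed into 1 gene the log2 fold change was 0.55 (standard error 0.18, edgeR adjusted p 0.506), the same as for *Csf2rb* alone.

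*Csf3r*, the G-CSF receptor, was at 151, 174 and 189 CPM in controls 1 to 3 and at 201, 302 and 198 CPM in treated libraries 1 to 3. All treated libraries lay above all controls, with anti-LILRB4 libraries 1 and 3 close to control library 3. The mean was 172 ± 19.1 CPM in controls and 234 ± 59.5 CPM in treated libraries (SD, n = 3). The log2 fold change, treated minus control, came to 0.45 (standard error 0.17), and its 95% interval was 0.07 to 0.83. In edgeR the unadjusted p was 0.0255 and the adjusted p 0.559. The authors' deposited table gives *Csf3r* an adjusted p of 0.273. With control library 1 left out the log2 fold change was 0.36, with anti-LILRB4 library 2 left out 0.23, and with both left out 0.14. *Csf3r* lies on GRCm38 chromosome 4, 126024550 to 126044440, plus strand, and its exons overlap those of no other annotated gene.

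**Figure D4:**
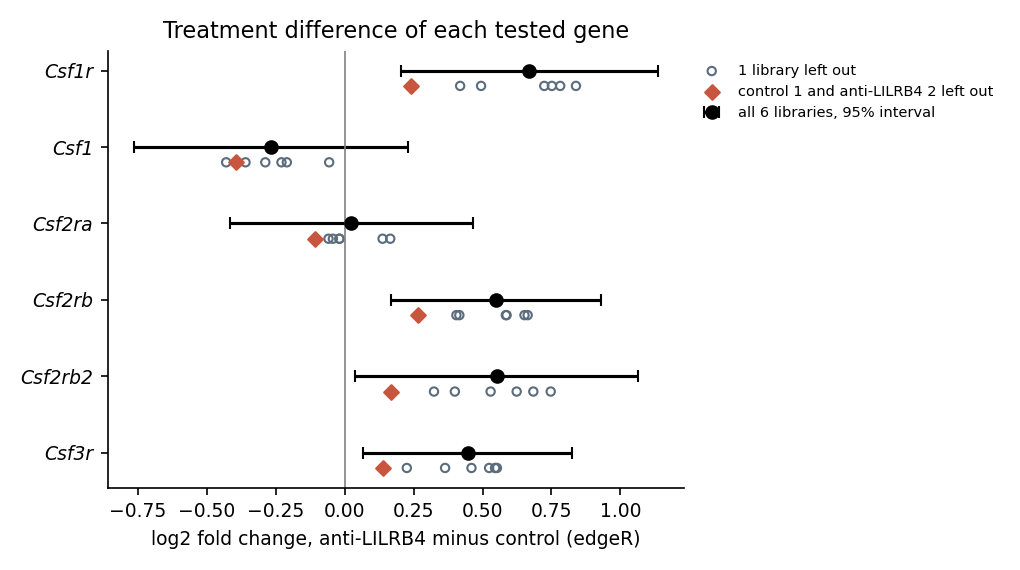
Log2 fold change of each tested gene, treated minus control, from edgeR with its 95% interval (black). Open circles leave out 1 library each, and red diamonds leave out both control library 1 and anti-LILRB4 library 2. For *Csf1r*, *Csf2rb*, *Csf2rb2* and *Csf3r* the diamonds stay above 0 but lie at 0.24, 0.27, 0.17 and 0.14, below every circle of the same gene. For these genes the diamonds drop the lowest control and the highest treated library, so a smaller difference was set by that choice.

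Neutrophil markers, given here because neutrophils express *Csf3r*, had another order over the libraries than *Csf3r*. The 13 neutrophil markers, 11 of which passed the filter and 3 of which were lower with unadjusted p below 0.05 against 3.91% of all genes tested, summed to 1340, 573 and 613 CPM in controls 1 to 3 and to 135, 1131 and 219 CPM in treated libraries 1 to 3. *S100a8*, which encodes a calcium-binding protein stored in neutrophil cytoplasm, was at 396 ± 224 CPM in controls and 185 ± 197 CPM in treated libraries (SD, n = 3), and *Ngp*, a granule protein, at 185 ± 69.7 and 155 ± 196 CPM. Control library 1 had the highest neutrophil sum and the lowest *Csf3r* level, and anti-LILRB4 libraries 1 and 3 had the lowest neutrophil sums with *Csf3r* levels above every control. In anti-LILRB4 library 2 the neutrophil sum and *Csf3r* were both high, but single markers went both ways. The 3 lower markers, *Retnlg*, *Mmp8* and *Ly6g*, were at 0.473, 1.03 and 0.596 CPM there, below every control. *Ngp*, *Ltf*, *Lcn2* and *Cxcr2* were above every control there. None of the 13 markers was at 0 in all libraries, but *Elane* and *Mpo*, granule enzymes of neutrophil precursors, reached at most 0.149 and 0.0728 CPM.

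Summed over each list, markers of other myeloid and glial cells were far below those of microglia. Single markers overlapped in level: the astrocyte marker *Slc1a3* was at 259 CPM in controls, above the microglia marker *Sall1* at 162 CPM. The 7 monocyte markers summed to 43.5 to 91.0 CPM in controls and 27.1 to 69.5 CPM in treated libraries, with *Chil3*, a chitinase-like protein, at 31.7 ± 15.0 and 22.0 ± 20.1 CPM and *Ccr2*, a chemokine receptor, at 10.9 ± 3.71 and 9.90 ± 1.82 CPM (SD, n = 3). The 7 markers of border-associated macrophages, which also express *Csf1r*, summed to 38.0 to 52.5 CPM in controls and 45.2 to 76.7 CPM in treated libraries. The sum was highest in anti-LILRB4 library 3, while *Csf1r* peaked in library 2. Among single markers, *F13a1* was highest in anti-LILRB4 library 2 (9.09 CPM) and *Lyve1* in library 1 (1.02 CPM), and the others in library 3. *Pf4*, a chemokine of these macrophages, was at 14.0 ± 1.46 CPM in controls and 16.7 ± 8.69 CPM in treated libraries, and *Ms4a7* at 10.3 ± 3.72 and 11.4 ± 4.01 CPM. All 7 of these markers had a log2 fold change above 0, with a median of 0.38, and 0 had an unadjusted p below 0.05. Among glial cells, the 6 oligodendrocyte markers summed to 125 to 144 CPM in controls and 159 to 171 CPM in treated libraries, with no overlap. Most of that sum was *Cnp*, a myelin enzyme, at 77.5 CPM in controls and 102.6 CPM in treated libraries (log2 fold change 0.40, edgeR adjusted p 0.485). Of the 6 markers only *Cnp* had all treated libraries above all controls, against 6.94% of all genes tested. With unadjusted p below 0.05, 2 were higher and 0 were lower, against 4.12% and 3.91%. The 6 astrocyte markers summed to 254 to 276 CPM in controls and 246 to 287 CPM in treated libraries. What part any of these cells had in the receptor levels was not tested.

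Genes that act below CSF1R had a median difference near 0. Of 28 tested members of a downstream signalling list, 0 passed the test, and 1 was higher and 1 was lower with unadjusted p below 0.05, near the 4.12% and 3.91% of all genes tested, which are also the shares to set beside the counts of the lists that follow. The median log2 fold change was 0.0033, beside -0.0068 over all genes tested. *Dusp6*, a phosphatase induced by and acting on ERK, was at 1612, 1417 and 1504 CPM in controls 1 to 3 and at 1211, 1156 and 1250 CPM in treated libraries 1 to 3. All treated libraries lay below all controls, and the log2 fold change was -0.33 with a 95% interval of -0.51 to -0.14 (edgeR adjusted p 0.426). *Gab2*, a docking protein of receptor signalling, was at 9.52, 11.2 and 12.7 CPM in controls 1 to 3 and at 16.3, 22.9 and 15.1 CPM in treated libraries 1 to 3, with a log2 fold change of 0.70 (edgeR adjusted p 0.506).

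Among 14 transcription factors with known roles at *Csf1r* or in its lineage, 0 passed the test, 1 was higher and 1 was lower with unadjusted p below 0.05, and the median log2 fold change was 0.03. *Ets1*, a factor of the ETS family, was at 51.3, 77.5 and 78.9 CPM in controls 1 to 3 and at 100.03, 108.6 and 105.02 CPM in treated libraries 1 to 3, all above the controls, with a log2 fold change of 0.59 (edgeR adjusted p 0.439). *Mitf*, a factor of lysosomal and osteoclast genes, differed by -0.46 on the log2 scale, and its groups overlapped (edgeR adjusted p 0.601).

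Of 17 genes of the common beta chain pathway, 12 were tested and 0 passed, while 1 was higher and 1 was lower with unadjusted p below 0.05. The cytokine genes *Il3* and *Il5* had 0 reads in every library. *Stat5b*, which carries the signal of the common beta chain to the nucleus, was at 27.0, 25.7 and 31.1 CPM in controls 1 to 3 and at 29.8, 39.2 and 42.7 CPM in treated libraries 1 to 3, with a log2 fold change of 0.41 (edgeR adjusted p 0.580). *Cish*, a STAT5 target that restrains cytokine signalling, was under 1 CPM in every library, at 0.688 ± 0.369 CPM in controls and 0.124 ± 0.0505 CPM in treated libraries (SD, n = 3), with all treated libraries below all controls and a log2 fold change of -2.46 (edgeR adjusted p 0.506). The median of the list was -0.02.

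Of 8 genes for receptor kinases of the same class as CSF1R and their ligands, 6 were tested, and 0 had an unadjusted p under 0.05. The smallest belonged to *Flt3l*, a cytokine of dendritic cell precursors, and *Pdgfrb*, a receptor of mural cells, with log2 fold changes of -0.78 and 2.12 at levels of 1.51 and 0.107 CPM in controls (edgeR adjusted p 0.684 and 0.700). The list median was 0.20. Of 13 genes of survival and proliferation, 0 passed the test, 1 was higher and 1 was lower with unadjusted p below 0.05, and the median was 0.0088. *Mki67*, a marker of dividing cells, was at 0.158, 0.0496 and 0.0683 CPM in controls 1 to 3 and at 0.355, 1.65 and 0.267 CPM in treated libraries 1 to 3. Controls 2 and 3 were at or under the level of 3 reads, which is 0.0744 and 0.0683 CPM there. The log2 fold change of *Mki67* was 3.00 with a 95% interval of 0.88 to 5.13 (edgeR adjusted p 0.506). *Myc*, a growth-promoting factor, was at 57.4 ± 8.19 CPM in controls and 43.7 ± 8.01 CPM in treated libraries (SD, n = 3; edgeR adjusted p 0.612).

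Promoter sequence was looked at because several of the receptor genes had their lowest and highest levels in the same libraries. RefSeq promoters (GRCm38.p6) were matched for 4 of the 7 genes, *Csf1*, *Csf2ra*, *Csf2rb2* and *Csf3r*, and the 250 bases before the RefSeq start were searched on both strands for GAGGAA, the purine-rich core bound by the myeloid factor PU.1, encoded by *Spi1*. It occurred once in *Csf3r*, once in *Csf2rb2*, 2 times in tandem in *Csf2ra* and not in *Csf1*, where 23.3% of 32851 RefSeq promoters of this length hold it. *Spi1* itself had a log2 fold change of 0.22 (edgeR adjusted p 0.750). GENCODE M21 places some starts elsewhere: by its annotation the *Csf3r* match lies inside the first exon, and in *Csf2ra* one copy lies inside the longest first exon and the other spans its start. The *Csf2rb2* match lies before the start in both annotations. A match is a description of the letters and not of binding. *Csf2ra*, with the most copies, was not lowest in control library 1 or highest in anti-LILRB4 library 2. *Csf1r* and *Csf2rb*, which were, had no promoter to search. Whether the motif goes with the order of the libraries was not tested. The windows are chr4:126024409-126024658 on the plus strand for *Csf3r*, chr15:78305722-78305971 on the minus strand for *Csf2rb2* and chr19:61228419-61228668 on the minus strand for *Csf2ra*. Capitals mark the motif or its reverse complement.
Csf3r: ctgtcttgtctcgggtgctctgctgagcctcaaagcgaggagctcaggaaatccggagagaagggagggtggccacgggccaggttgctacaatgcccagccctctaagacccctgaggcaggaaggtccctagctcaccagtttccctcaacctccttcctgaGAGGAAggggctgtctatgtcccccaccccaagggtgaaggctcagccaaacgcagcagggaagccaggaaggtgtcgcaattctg
Csf2rb2: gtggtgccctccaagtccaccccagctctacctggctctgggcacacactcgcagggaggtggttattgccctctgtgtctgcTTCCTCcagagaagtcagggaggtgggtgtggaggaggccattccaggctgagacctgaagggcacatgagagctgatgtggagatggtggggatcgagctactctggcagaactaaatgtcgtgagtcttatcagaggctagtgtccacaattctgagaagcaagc
Csf2ra: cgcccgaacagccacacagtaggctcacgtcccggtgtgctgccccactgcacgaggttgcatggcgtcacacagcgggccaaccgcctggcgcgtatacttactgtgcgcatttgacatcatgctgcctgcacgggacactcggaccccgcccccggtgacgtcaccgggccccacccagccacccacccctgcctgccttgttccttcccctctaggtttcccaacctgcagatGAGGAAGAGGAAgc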

How the data were processed

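For 6 libraries the authors deposited whole-number read counts by Ensembl gene, without normalization. Per the submitters' processing notes, STAR, Subread featureCounts, Salmon and DESeq2 1.38.3 were used, with no roles given. Genome build: not given in the sources used here. The same holds for the strand setting and for reads matching several genes. Per the file headers, their comparison table lists for each gene a mean normalized signal, the log2 fold change with its error, a test score, and the raw and adjusted p-value.

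After 287 repeated rows were dropped, edgeR 4.0.16 (R 4.3.3) was run with filterByExpr (minimum count 10), TMM and the quasi-likelihood F test on 18210 genes, with no covariate. The square root of F, set against the log2 fold change, gave standard errors, and log2 CPM used a prior count of 2. The test was checked on simulated counts. DESeq2 1.42.0, limma-voom (limma 3.58.1), other scalings, filters and left-out libraries were alternatives. A length and GC correction, scaling to microglia markers and leaving out control library 1 and anti-LILRB4 library 2 together were chosen after seeing the data. Exon lengths and coordinates are those of GENCODE M21, joined by Ensembl identifier. The table's reads may have been counted on another annotation. Coding sequences were aligned with biopython 1.88, and figures drawn with matplotlib 3.10.9.

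The members, the lists and the tests were chosen with earlier results of these data known. The genes named were the 7 members, the 2 of each pathway list with the smallest p, the 5 genes most like *Csf1r* by Pearson correlation, and the 2 or 3 most abundant markers of the cell types described, of which 1 is not reported here. *Hmgxb3*, the miRNA genes at the beta chains, the antisense genes at *Il34*, *Il3*, *Il5*, *Elane*, *Mpo*, *Cnp* and *Spi1* were named outside that rule, after their values were seen. So were *Retnlg*, *Mmp8*, *Ly6g*, *Ltf*, *Lcn2*, *Cxcr2*, *F13a1*, *Lyve1*, *Slc1a3* and *Sall1*. Replicate numbers were not treated as a pairing in the main test.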

Additional observations from a re-analysis of the deposited data

How the results depend on the processing

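The tested receptor and ligand genes other than *Csf2ra* kept the sign of their log2 fold change under every alternative run. With each library left out in turn the log2 fold change ran from 0.42 to 0.84 for *Csf1r*, 0.41 to 0.66 for *Csf2rb*, 0.32 to 0.75 for *Csf2rb2*, 0.23 to 0.55 for *Csf3r*, -0.43 to -0.06 for *Csf1* and -0.0589 to 0.1651 for *Csf2ra*. *Csf2ra* was also below 0 with upper quartile scaling (-0.0069), with the length and GC correction (-0.0501) and without both control library 1 and anti-LILRB4 library 2 (-0.11). The length and GC correction also gave smaller log2 fold changes for *Csf1r* (0.56), *Csf2rb* (0.43), *Csf2rb2* (0.47) and *Csf3r* (0.37). For *Csf1* it gave -0.36, further below 0 than the main fit. With no filter on low counts edgeR called 300 genes, 183 higher and 117 lower, among them *Csf1r* (log2 fold change 0.68, adjusted p 1.41e-06) and *Csf2rb* (0.56, adjusted p 0.0225). DESeq2 called 169 genes, 84 higher and 85 lower, and none of the genes described here. The cause of these differences in calls was not tested. The other alternatives, leaving out each library included, called 0 genes, while 1463 had an unadjusted p under 0.05 in the edgeR test with all libraries. With the replicate number as a block edgeR called 0 genes and gave *Csf1r* 0.66 with a standard error of 0.09 and an adjusted p of 0.231. Same-numbered libraries did not deviate together over the genes tested (correlations of 0.0136, 0.029 and -0.0138 for numbers 1, 2 and 3). With so few libraries per group this cannot settle whether the numbers mark a pairing. *Il34*, with 0 to 2 reads per library, was not tested. At this depth its absence from these cells and a level under the limit of detection cannot be told apart.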
